A study of Mus musculus with 12 samples.

Results

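The Th1 programme was followed in regulatory T cells (Treg) through 10 genes, taken by symbol: the cytokines Ifng and Tnf, the chemokines Ccl3, Ccl4 and Ccl5, the receptor chain Il12rb2, the signal transducer Stat4, and the transcription factors Tbx21, Eomes and Runx3. All 10 were among the 23337 symbols in the files, and all 10 passed the filter on low counts that left 12038 genes for testing. RNA was sequenced in 12 libraries from C57BL/6 mice aged 8 weeks, with 3 libraries in each of 4 groups. Induced Treg (iTreg) were GFP-positive cells isolated on day 5 of a culture of CD4 T cells with IL2 and TGFbeta. Natural Treg (nTreg) were CD4+GFP+ cells sorted from spleen and lymph nodes. In both, the KO label stood for Hrd1 flox/flox, FoxP3-cre+-GFP, and the WT label for Hrd1 +/flox, FoxP3-cre+-GFP. The WT-labelled mice thus carried a floxed allele and the Cre as well, and no group was free of either. The Cre follows Foxp3, so in culture the deletion can start only once a cell has switched Foxp3 on. The labels do not say whether libraries came from separate mice, and p-values therefore measure the spread between these libraries, part of which may be technical. Hrd1 (Syvn1 in the files) tags misfolded proteins of the endoplasmic reticulum with ubiquitin for degradation.

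Th1 cells are helper T cells that fight intracellular microbes. Interleukin 12 binds a receptor that contains the chain encoded by Il12rb2 and activates STAT4, and the T-box factor T-bet, encoded by Tbx21, switches on Ifng with the help of Runx3, while Eomes encodes a related T-box factor. Some Treg express T-bet and need it to control Th1 responses, and Treg that lose stability can make interferon gamma.

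The promoter sequences of 5 of these genes are shown because, of the 8 genes with a promoter in RefSeq (GRCm38.p6, the assembly of mm10), they differed most between iTreg and nTreg with the KO label. Ccl4 and Ccl5 were not matched, and 2 of the 8 genes had a second promoter. Each sequence is the 250 bases before the first RefSeq start, 5′ to 3′ on the strand of the gene. Capitals mark matches, on either strand, to TGTGGT (the core bound by RUNX factors), GGTGTG (a T-box core), TTCNNNGAA (a STAT site) or TGANTCA (an AP-1 site), and no match overlapped that of another motif.
Ifng promoter (chr10:118440796-118441045, plus strand): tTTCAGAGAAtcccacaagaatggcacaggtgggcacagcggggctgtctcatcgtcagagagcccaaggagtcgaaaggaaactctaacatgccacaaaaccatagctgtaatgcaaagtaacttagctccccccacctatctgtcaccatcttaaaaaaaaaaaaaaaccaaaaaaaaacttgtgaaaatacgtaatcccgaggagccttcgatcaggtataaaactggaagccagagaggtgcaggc
Ccl3 promoter (chr11:83649379-83649628, minus strand): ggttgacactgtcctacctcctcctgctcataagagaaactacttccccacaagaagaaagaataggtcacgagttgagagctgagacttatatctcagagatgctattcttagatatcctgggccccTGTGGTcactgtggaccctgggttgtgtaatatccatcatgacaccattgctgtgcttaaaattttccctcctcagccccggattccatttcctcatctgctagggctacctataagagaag
Il12rb2 promoter (chr6:67376189-67376438, minus strand): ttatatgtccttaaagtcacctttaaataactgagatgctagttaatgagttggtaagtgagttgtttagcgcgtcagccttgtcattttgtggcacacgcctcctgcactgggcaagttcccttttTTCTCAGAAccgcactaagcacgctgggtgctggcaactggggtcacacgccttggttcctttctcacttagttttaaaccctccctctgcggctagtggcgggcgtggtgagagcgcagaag
Tbx21 promoter (chr11:97115332-97115581, minus strand): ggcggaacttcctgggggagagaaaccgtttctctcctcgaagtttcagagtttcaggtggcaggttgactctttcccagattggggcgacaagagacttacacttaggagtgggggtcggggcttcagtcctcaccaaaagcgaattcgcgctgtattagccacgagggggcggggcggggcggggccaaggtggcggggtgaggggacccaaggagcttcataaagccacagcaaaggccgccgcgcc
Stat4 promoter (chr1:51986898-51987147, plus strand): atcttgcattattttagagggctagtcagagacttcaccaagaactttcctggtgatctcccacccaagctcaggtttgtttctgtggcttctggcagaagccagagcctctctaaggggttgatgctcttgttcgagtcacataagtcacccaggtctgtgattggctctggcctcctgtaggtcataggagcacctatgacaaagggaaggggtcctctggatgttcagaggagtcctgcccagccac
The Ifng and Il12rb2 windows each held 1 STAT match, a motif present in 7.02% of all 32851 promoters. The Ccl3 window held 1 RUNX match and the first of the Runx3 windows held 2, against 14% of all promoters with at least 1. None of the 10 windows of these genes held the T-box letters, which were in 16.3% of all promoters, or the AP-1 letters, which were in 6.75%. These are matches of letters in short windows and say nothing about binding.

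Total counts ranged from 9607726 to 12691976 in iTreg KO, 11332590 to 13223102 in iTreg WT, 8609283 to 15462894 in nTreg KO and 6763458 to 10845948 in nTreg WT. Levels are given in CPM, counts scaled to a common library size with TMM factors. Log2 fold changes carry their standard error (SE) and an adjusted p from the quasi-likelihood test of edgeR, corrected by Benjamini-Hochberg over the 12038 genes, with n = 3 libraries per group. A gene passed the test at an adjusted p under 0.05. Libraries of the same number varied together between KO and WT within a cell type (correlations of their deviations from 0.318 to 0.669 in iTreg and from 0.497 to 0.647 in nTreg), so values with the replicate number as a block stand beside results whose call they change. Foxp3, which defines Treg, was read in every library, at 191 to 392 CPM in iTreg KO, 306 to 393 in iTreg WT, 565 to 668 in nTreg KO and 583 to 665 in nTreg WT. Syvn1 stood at 63.6 ± 9.26 CPM in iTreg KO and 78.3 ± 20.5 CPM in iTreg WT, and at 137 ± 7.94 CPM in nTreg KO and 78.8 ± 7.33 CPM in nTreg WT (SD, n = 3 each). In nTreg the gene was thus higher in the libraries labelled KO (log2 fold change 0.80, SE 0.17, adjusted p = 0.023, edgeR), and every direction below is that of libraries labelled KO. The gene-level count cannot check the label, since the floxed exons are not given and reads from the other exons are counted. Xist reads marked nTreg KO replicate 3, nTreg WT replicate 3 and iTreg WT replicate 2 (486 to 2035 CPM without TMM factors, at most 0.232 elsewhere). The first 2 of these also held reads of the Y-linked Ddx3y. In iTreg WT replicate 2 Ddx3y had 0 reads, against 1495 and 1629 in iTreg WT replicates 1 and 3, so that library came from another mouse than those. The library of the same number, iTreg KO replicate 2, had 0 Xist and 748 Ddx3y reads. The replicate block in iTreg thus joins 2 libraries that are unlike in these genes. The macrophage gene Csf1r was highest in both nTreg libraries numbered 2. Results were therefore also computed, with no block, without the libraries with Xist reads and without both nTreg libraries numbered 2.

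**Figure D1:**
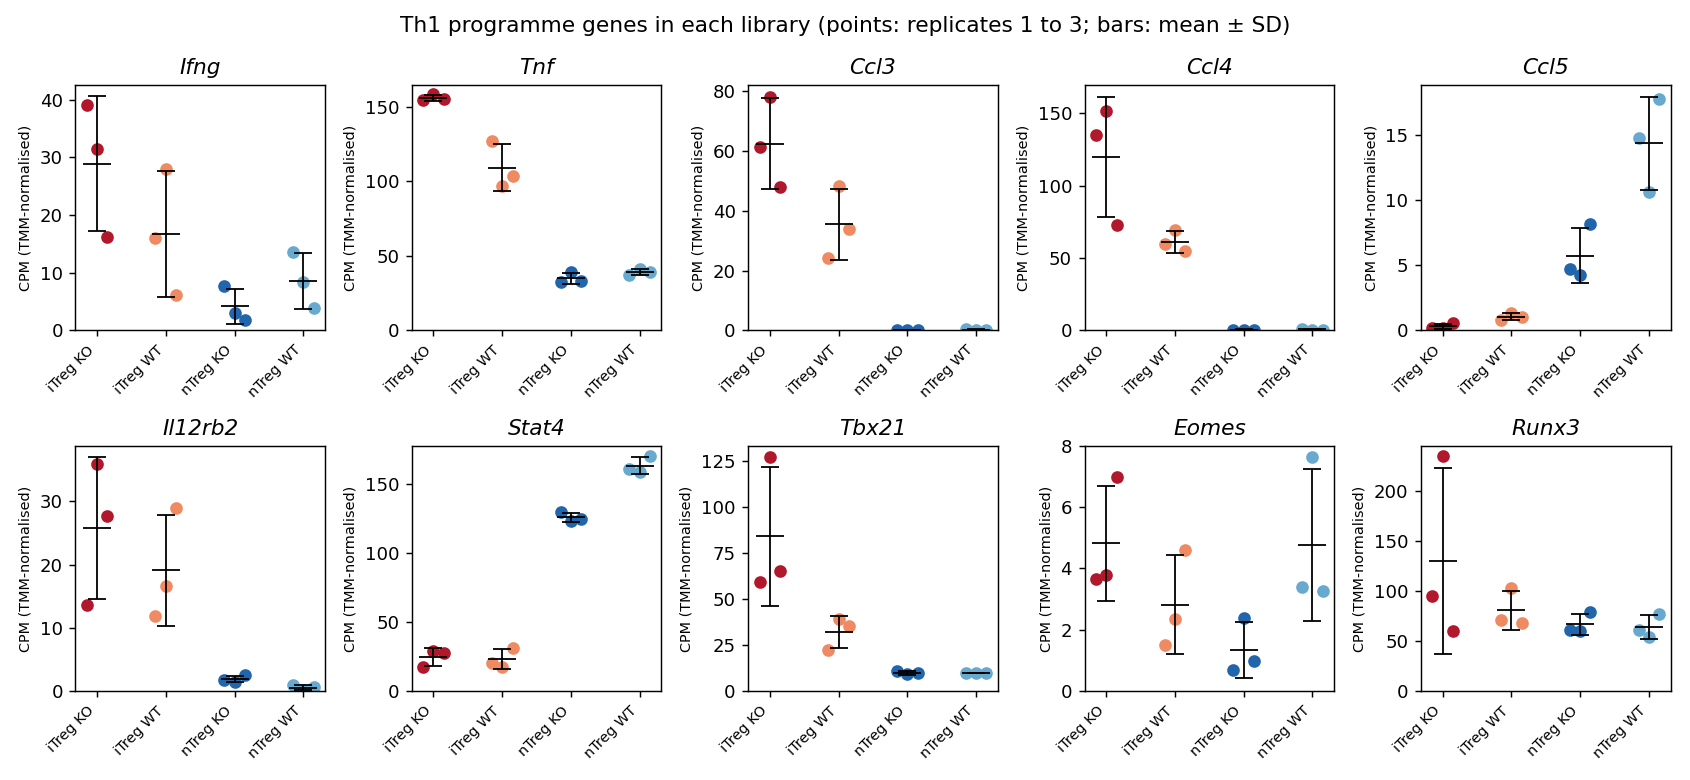
TMM-normalised CPM of the 10 genes in each library, with 1 panel per gene, the 4 groups along the x axis, replicates 1 to 3 from left to right within a group, and bars for mean ± SD. Tbx21, Tnf and Ccl4 were higher in all 3 iTreg KO libraries than in any iTreg WT library, while Stat4 and Ccl5 were higher in all 6 nTreg than in any iTreg library.

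In KO-labelled against WT-labelled iTreg, Treg made in culture, Tbx21 had the smallest p of the 10 genes, and Tbx21, Tnf and Ccl4 lay higher in every KO library than in any WT library. Tbx21 stood at 59.3, 127 and 65.5 CPM in iTreg KO replicates 1, 2 and 3, against 22.5, 39.0 and 35.2 CPM in the iTreg WT replicates. The lowest KO library lay above the highest WT library, and KO replicate 2 stood above the other KO libraries. The log2 fold change was 1.38 (SE 0.27, 2.61-fold), which missed the threshold (adjusted p = 0.088, edgeR) and passed it with the replicate block (1.34, adjusted p = 0.0033). Over 20 alternatives the adjusted p ran between 0.00064 and 0.94, and 3 passed. Without iTreg KO replicate 2 the log2 fold change was 0.95 (adjusted p = 0.15).

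Tnf encodes an inflammatory cytokine, and it stood at 154, 158 and 156 CPM in iTreg KO, against 127, 97.2 and 104 CPM in iTreg WT. These groups did not overlap, and the KO libraries differed little among themselves. The log2 fold change was 0.52 (SE 0.11, adjusted p = 0.14, edgeR), and 0.52 with the block (adjusted p = 0.030).

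Ccl4 encodes an inflammatory chemokine. It stood at 135, 152 and 72.5 CPM in iTreg KO, against 59.8, 69.5 and 54.6 CPM in iTreg WT. Again all KO libraries lay above all WT libraries, though KO replicate 3 only just. The log2 fold change was 0.96 (SE 0.24, adjusted p = 0.26, edgeR), and 0.91 with the block (adjusted p = 0.021). Its neighbour on chromosome 11, Ccl3, encodes a chemokine of the same family. Ccl3 stood at 61.3, 78.2 and 47.8 CPM in iTreg KO, against 24.3, 48.1 and 33.9 CPM in iTreg WT. The lowest KO library fell just below the highest WT library, while each KO library exceeded the WT library of its own number (log2 fold change 0.81, SE 0.29, adjusted p = 0.51; 0.064 with the block, edgeR).

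Ifng stood at 39.1, 31.4 and 16.1 CPM in iTreg KO, against 16.1, 28.0 and 6.05 CPM in iTreg WT. The groups overlapped, and the WT libraries alone spanned a wider range than the gap between the means (log2 fold change 0.78, SE 0.58, adjusted p = 0.82; 0.11 with the block, edgeR). Eomes was low in both groups, at 3.65, 3.80 and 6.99 CPM in iTreg KO against 1.5, 2.34 and 4.61 CPM in iTreg WT (0.79, SE 0.53, adjusted p = 0.79).

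Il12rb2, at 13.7, 35.9 and 27.6 CPM in iTreg KO against 11.9, 16.6 and 28.9 CPM in iTreg WT, overlapped widely (0.43, SE 0.39, adjusted p = 0.86). So did Stat4, at 17.3, 29.0 and 27.2 CPM in iTreg KO against 20.3, 17.4 and 31.1 CPM in iTreg WT (0.10, SE 0.21, adjusted p = 0.96). Runx3 encodes a partner of T-bet, and it stood at 95.2, 236 and 60.1 CPM in iTreg KO against 71.1, 103 and 68.5 CPM in iTreg WT. Its log2 fold change of 0.68 (SE 0.38, adjusted p = 0.75) rested on KO replicate 2, and without that library it was -0.06. The same library had the lowest Foxp3 of the 6 iTreg libraries, at 191 CPM, with 392 and 375 CPM in the other KO libraries, and the part of that in the Tbx21 and Runx3 values was not tested.

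Ccl5, which encodes another inflammatory chemokine, lay on the other side. It stood at 0.209, 0.211 and 0.556 CPM in iTreg KO, against 0.825, 1.36 and 0.994 CPM in iTreg WT. All KO libraries lay below all WT libraries, on 2, 2 and 7 reads in iTreg KO against 11, 18 and 11 reads in iTreg WT (log2 fold change -1.60, SE 0.52, adjusted p = 0.40; 0.12 with the block, edgeR).

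In all, none of the 10 genes passed in iTreg, where 0.183% of all tested genes did, and 5 of the 10 had an unadjusted p under 0.05 in edgeR, as did 7.56% of all tested genes. DESeq2 called 2, Tbx21 and Tnf (adjusted p = 0.00064 and 0.0073), where it called 0.779% of the genes it gave an adjusted p. With the replicate block 3 were called, all higher with the KO label (Tbx21, Tnf and Ccl4), where 0.673% of all genes were called higher. Without iTreg KO replicate 3 the fit with no block called 2, Tbx21 (adjusted p = 0.045) and Ccl4 (0.013). Groups did not overlap for 3 genes that lay higher with the KO label and 1 that lay lower, against 4.68% and 4.95% of all genes. The median log2 fold change was 0.73, against -0.01 over all tested genes.

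Transcripts of other cells that make these chemokines were looked at beside the values. The 2 CD8 T cell markers Cd8a and Cd8b1 summed to 8.42 to 10.9 CPM in iTreg KO and 12.6 to 21.3 CPM in iTreg WT, on the opposite side from Tbx21, Tnf and Ccl4. The 6 NK cell markers summed to 22.9 to 56.9 CPM in iTreg KO and 21.4 to 59.6 CPM in iTreg WT. Nearly all of that was Klrd1 (34.6 ± 15.1 CPM in iTreg KO and 38.5 ± 17.1 CPM in iTreg WT, SD, n = 3 each). Gzma had 49 reads in iTreg KO and 132 in iTreg WT, Klre1 had 27 and 17, and Klrb1c had 1 and 2. Ncr1 and Klra8 had no read in any iTreg library, and Klra8 had none in nTreg either. The 8 myeloid markers summed to 2.70 to 5.92 CPM in iTreg KO and 2.44 to 5.20 CPM in iTreg WT, with Lyz2 and C1qa at 0 in both. The part of such cells in the Ccl3 and Ccl4 values was not tested further. In bulk samples such as these, fewer cells of a type and less RNA per cell cannot be told apart.

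**Figure D2:**
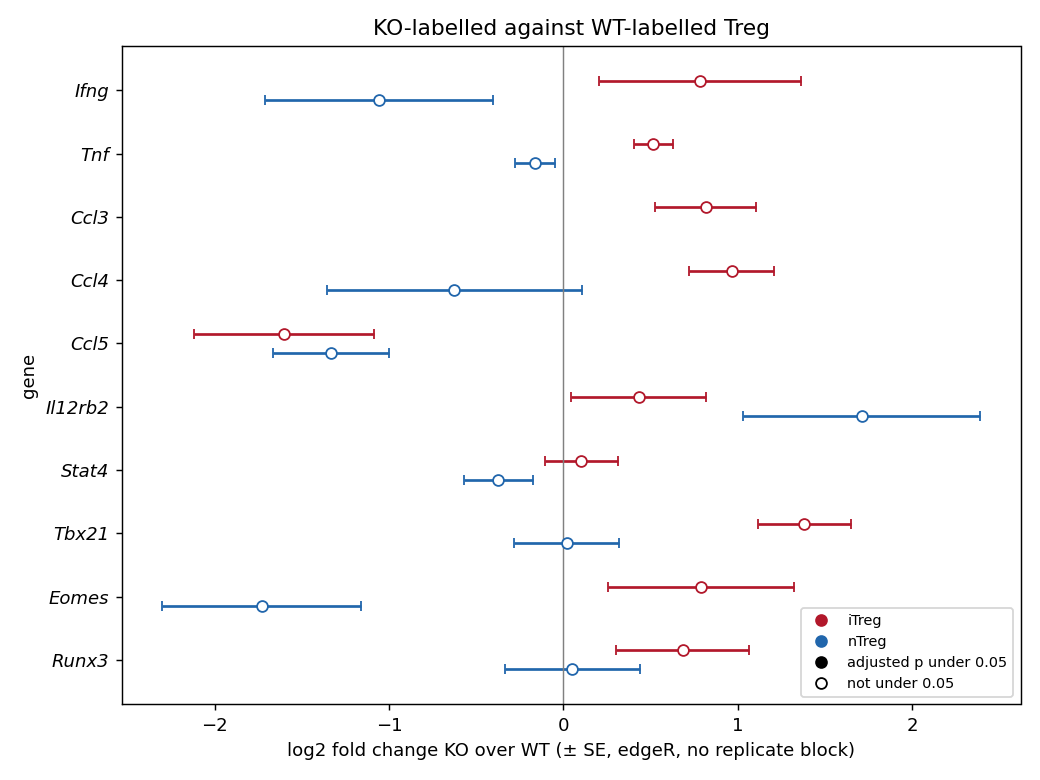
Log2 fold change of libraries labelled KO over libraries labelled WT in iTreg (red, upper point of each gene) and nTreg (blue, lower point), with bars for ± SE, from edgeR with no replicate block. Open points did not pass the test, which holds for every point drawn, and Ccl3 in nTreg is left out because it had 2 and 4 reads per group.

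In KO-labelled against WT-labelled nTreg, Treg that formed in the animal, Ccl5, Eomes and Stat4 lay lower, and Il12rb2 higher, in every KO library than in any WT library. Tbx21 had 11.01, 9.07 and 9.60 CPM in nTreg KO and 9.90, 9.63 and 9.68 CPM in nTreg WT. The groups overlapped and their means, 9.89 ± 1.0 CPM in nTreg KO and 9.73 ± 0.144 CPM in nTreg WT (SD, n = 3 each), lay within the spread (log2 fold change 0.02, SE 0.30, adjusted p = 0.99, edgeR).

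The other factor of the T-box family lay lower with the KO label. Eomes stood at 0.695, 2.39 and 0.971 CPM in nTreg KO, against 3.40, 7.64 and 3.26 CPM in nTreg WT. All 3 KO libraries lay below all 3 WT libraries, on 6, 38 and 9 reads in nTreg KO against 23, 54 and 35 reads in nTreg WT. The log2 fold change was -1.73 (SE 0.57, adjusted p = 0.18, edgeR), and -1.83 with the block (adjusted p = 0.0042). Without the block it was -2.48 when nTreg KO replicate 2 was left out and -1.22 when nTreg WT replicate 2 was left out.

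Ccl5 also lay lower. It stood at 4.75, 4.28 and 8.20 CPM in nTreg KO, against 14.8, 10.6 and 17.8 CPM in nTreg WT, with no overlap. Its log2 fold change of -1.33 (SE 0.33, 2.52-fold lower) missed the threshold (adjusted p = 0.066, edgeR) and passed with the block (-1.34, adjusted p = 0.0067) and in DESeq2 (-1.37, adjusted p = 0.0067). It also passed with the 6 nTreg libraries alone (adjusted p = 0.019, edgeR), and without iTreg KO replicate 2 or 3 or nTreg KO replicate 3 (0.042 to 0.046). Over 20 alternatives the adjusted p ran up to 0.34.

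Ifng stood at 7.65, 2.96 and 1.83 CPM in nTreg KO, against 13.6, 8.35 and 3.91 CPM in nTreg WT. The groups overlapped, but each KO library lay below the WT library of its number, with log2 ratios of -0.83, -1.5 and -1.09. The fit gave -1.06 (SE 0.65, adjusted p = 0.53) and, with the block, -1.12 (adjusted p = 0.046, edgeR). Without the block it was -1.78 when nTreg KO replicate 1 was left out and -0.56 when nTreg WT replicate 1 was left out.

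Il12rb2, the receptor chain, lay on the other side at a low level. It stood at 1.74, 1.51 and 2.48 CPM in nTreg KO, against 0.886, 0.142 and 0.651 CPM in nTreg WT, which is 15, 24 and 23 reads in nTreg KO against 6, 1 and 7 reads in nTreg WT. The groups did not overlap, yet the test did not pass (1.71, SE 0.68, adjusted p = 0.25; 0.057 with the block, edgeR). The gene shares 1519 exonic bases with Serbp1 on the opposite strand of chromosome 6, and the strand setting of the counting is not given in the sources used here, so Il12rb2 counts are uncertain. Serbp1, an abundant gene for an RNA-binding protein, was at 552 ± 15.1 CPM in nTreg KO and 491 ± 45.4 CPM in nTreg WT (SD, n = 3 each), and its part in the Il12rb2 values was not tested.

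Stat4 was the most abundant of the 10 genes in nTreg, per kilobase of exon as well as in CPM. It stood at 129, 123 and 125 CPM in nTreg KO, against 160, 158 and 170 CPM in nTreg WT. The groups did not overlap, the gap was small (-0.37, SE 0.20, adjusted p = 0.45; 0.16 with the block), and with the 6 nTreg libraries alone it passed (adjusted p = 0.0071, up to 0.88 under the other alternatives, edgeR). Tnf stood at 32.4, 39.3 and 33.4 CPM in nTreg KO against 37.4, 41.3 and 39.4 CPM in nTreg WT (-0.16, SE 0.12, adjusted p = 0.59). Runx3 was at 66.7 ± 10.4 CPM in nTreg KO and 64.2 ± 11.6 CPM in nTreg WT (SD, n = 3 each). Ccl3 and Ccl4 were close to absent, with 2 and 14 reads over the 3 KO libraries and 4 and 16 reads over the 3 WT libraries, so a difference was not detectable at this depth.

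None of the 10 genes passed in nTreg, where 2.53% of all tested genes did. An unadjusted p under 0.05 in edgeR was found for 3 of the 10 and for 13.4% of all genes, and DESeq2 called 1, Ccl5, where it called 4.02% of the genes it gave an adjusted p. With the block 3 were called, all lower with the KO label (Ifng, Ccl5 and Eomes), where 3.64% of all genes were called lower. Groups did not overlap for 1 gene that lay higher and 3 that lay lower, against 15.7% and 14.1% of all genes. The median log2 fold change was -0.50 (-0.37 without Ccl3), against 0.01 over all tested genes. The B cell markers, which here sum 4 genes, lay on the same side, at 4.79 to 6.47 CPM in nTreg KO and 13.5 to 17.4 CPM in nTreg WT. The NK markers summed to 2.90 to 5.33 CPM in nTreg KO and 4.001 to 8.12 CPM in nTreg WT, with Klra8 at 0, and the CD8 markers to 14.7 to 19.1 CPM in nTreg KO and 12.03 to 17.0 CPM in nTreg WT. The T cell genes Cd3e, Cd3d and Cd4 also lay lower, summing to 1423 to 1493 CPM in nTreg KO and 1844 to 1913 CPM in nTreg WT, and of these Cd3d and Cd4 passed with the block (log2 fold changes of -0.42 and -0.41, adjusted p = 0.047 and 0.019, edgeR). The red cell gene Beta-s lay higher, at 7.66 to 31.1 CPM in nTreg KO and 2.51 to 4.19 CPM in nTreg WT (adjusted p = 0.10, edgeR). The part of these cells and levels in the Ccl5, Eomes and Ifng values was not tested. Without both nTreg libraries numbered 2, and likewise without the libraries with Xist reads, none of the 10 genes passed in either cell type. These fits had no block, where none passed with all libraries either. The calls with the block were not tested again without these libraries.

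**Figure D3:**
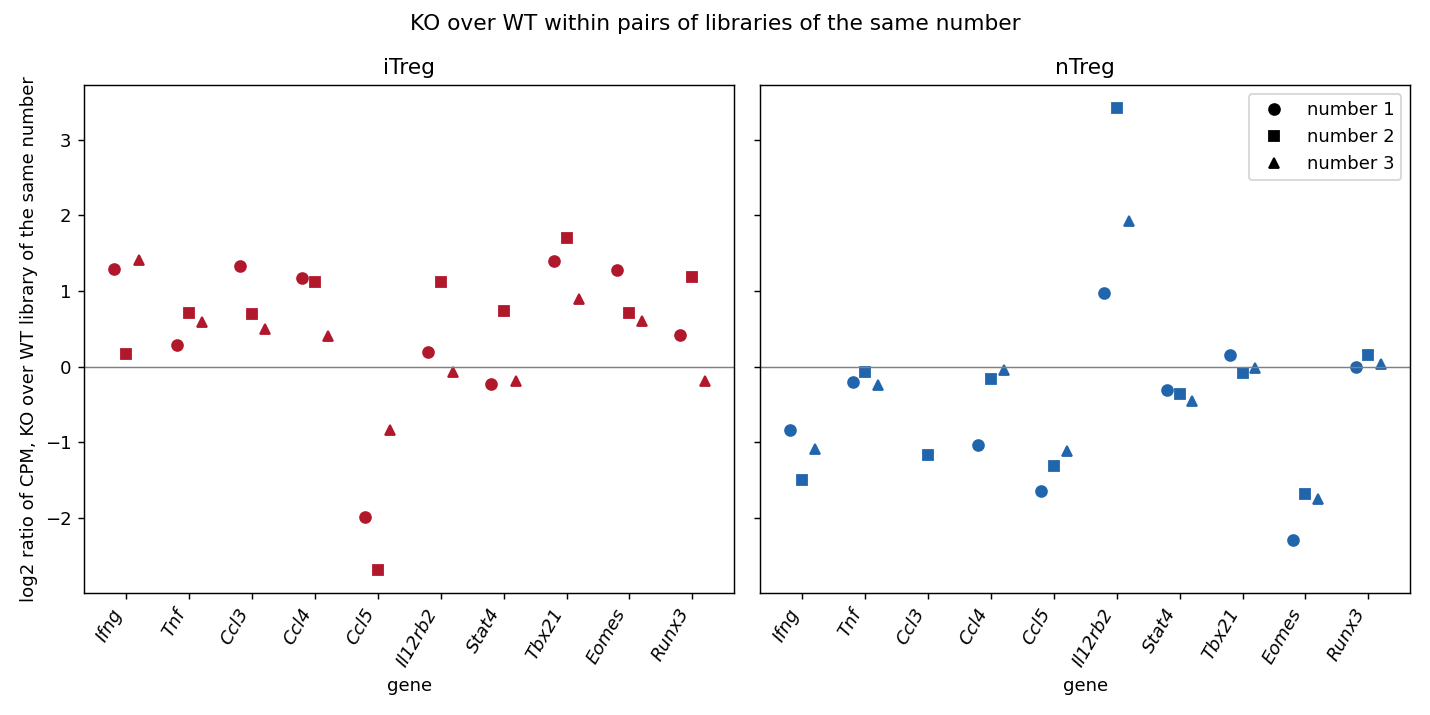
Log2 ratio of CPM in the KO library over the WT library of the same number, for each gene (x axis) in iTreg (left) and nTreg (right); the symbol gives the number. Tbx21, Tnf, Ccl3, Ccl4, Eomes and Ifng lay above 0 in all 3 iTreg pairs, while Ifng, Tnf, Ccl4, Ccl5, Eomes and Stat4 lay below 0 in all 3 nTreg pairs. Ccl5 also lay below 0 in all 3 iTreg pairs and Il12rb2 above 0 in all 3 nTreg pairs. Ccl3 had reads in both libraries of a pair in 1 nTreg pair, and Ccl4 had at most 8 reads in any nTreg library.

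Whether KO and WT libraries differed by another amount in iTreg than in nTreg was tested as an interaction, the log2 fold change in iTreg less that in nTreg. For Eomes it was 2.52 (SE 0.78, adjusted p = 0.34), and it passed with the block (2.66, adjusted p = 0.012, edgeR; 3.27 with no block and without nTreg KO replicate 2). For Tbx21 it was 1.36 (SE 0.40, adjusted p = 0.30) and 1.32 with the block (adjusted p = 0.022, edgeR). These are the T-box genes of the list, and both values were positive. The larger log2 fold change by size was in nTreg for Eomes and in iTreg for Tbx21. The log2 fold change of Eomes was 0.79 in iTreg and -1.73 in nTreg, and that of Tbx21 was 1.38 in iTreg and 0.02 in nTreg. For Ifng the values were 1.84 (SE 0.87, adjusted p = 0.70) and 2.04 with the block (adjusted p = 0.033, edgeR; 2.56 with no block and without nTreg KO replicate 1). For Tnf they were 0.68 (SE 0.16, adjusted p = 0.16) and 0.69 with the block (adjusted p = 0.037, edgeR). Thus 4 of the 10 genes passed with the block, all more positive in iTreg, where 0.341% of all genes did; none passed without it, where 0.291% of all genes did in either direction. At an unadjusted p under 0.05 there were 3 of the 10 in edgeR, against 7.44% of all genes, and DESeq2 called 1, Tnf (adjusted p = 0.015), against 1.20% of all genes. Ccl5 had a negative log2 fold change in both cell types, and its interaction was -0.27 (SE 0.61, adjusted p of nearly 1).

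Between iTreg and nTreg, Treg from culture and Treg from the animal, the chemokine genes Ccl3 and Ccl4 differed most of the 10. These comparisons use the same libraries as the KO comparisons. Ccl4 averaged 120 ± 41.7 CPM in iTreg KO and 0.457 ± 0.179 CPM in nTreg KO, and 61.3 ± 7.59 CPM in iTreg WT and 0.674 ± 0.460 CPM in nTreg WT (SD, n = 3 each). It was higher by 8.12 (SE 0.56, adjusted p = 5.8e-08) with the KO label and by 6.53 (SE 0.53, adjusted p = 9.1e-08) with the WT label on the log2 scale (edgeR). Ccl3 had 1929 reads in iTreg KO and 2 in nTreg KO, a ratio of 1030 after normalisation with an exact counting interval (95%) from 285 to 8508. With the WT label it had 1338 reads in iTreg and 4 in nTreg, a ratio of 218 (85.0 to 802), and a fitted log2 fold change of 7.65 (SE 0.93, adjusted p = 2.5e-07, edgeR; 6.88 without nTreg WT replicate 3). The intervals cover counting error only.

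Tbx21 rose in iTreg, to 84.0 ± 37.7 CPM in iTreg KO against 9.89 ± 1.0 CPM in nTreg KO, and to 32.2 ± 8.64 CPM in iTreg WT against 9.73 ± 0.144 CPM in nTreg WT (SD, n = 3 each). The log2 fold change was 3.09 (SE 0.28, adjusted p = 3.6e-06) with the KO label and 1.73 (SE 0.29, adjusted p = 0.00025) with the WT label (edgeR). Tnf rose as well, by 2.15 (SE 0.11, adjusted p = 8.7e-08) with the KO label and by 1.47 (SE 0.11, adjusted p = 6.0e-07) with the WT label, to 156 ± 2.08 CPM in iTreg KO and 109 ± 15.6 CPM in iTreg WT against 35.1 ± 3.71 CPM in nTreg KO and 39.4 ± 1.98 CPM in nTreg WT (SD, n = 3 each). Il12rb2 rose by 3.77 (SE 0.45, adjusted p = 2.6e-05) with the KO label and by 5.05 (SE 0.64, adjusted p = 9.2e-06) with the WT label (edgeR). Serbp1, whose exons overlap it, rose by 0.67 (SE 0.12) with the KO label and by 0.68 (SE 0.12) with the WT label.

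Ifng passed with the KO label, at 28.9 ± 11.7 CPM in iTreg and 4.15 ± 3.08 CPM in nTreg (SD, n = 3 each; 2.82, SE 0.62, adjusted p = 0.0024, edgeR; 3.54 without nTreg KO replicate 1). With the WT label it was at 16.7 ± 10.998 CPM in iTreg and 8.62 ± 4.85 CPM in nTreg, and the groups overlapped (0.99, SE 0.61, adjusted p = 0.18; 0.028 with a block on the number across cell types, although iTreg and nTreg libraries of a number did not vary together). Eomes passed with the KO label (1.76, SE 0.56, adjusted p = 0.016) and not with the WT label (-0.76, SE 0.54, adjusted p = 0.23), and without iTreg KO replicate 3, nTreg KO replicate 1 or nTreg KO replicate 3 the KO-label call ended (log2 fold changes of 1.39, 1.47 and 1.57, adjusted p from 0.057 to 0.067, edgeR), as it did without the libraries with Xist reads (0.085). Without nTreg KO replicate 2 the log2 fold change of Eomes was 2.51. Runx3 passed narrowly with the KO label (0.96, SE 0.38, adjusted p = 0.045, edgeR), not with the WT label (0.33, SE 0.39, adjusted p = 0.46), and its call ended when any 1 of 10 of the 12 libraries was left out, all but iTreg KO replicates 1 and 3. Without iTreg KO replicate 2 its log2 fold change was 0.22 (adjusted p = 0.45, edgeR). With the block on the number across cell types Runx3 missed the threshold with the KO label (0.84, adjusted p = 0.080, edgeR). Of 20 alternatives for this comparison, 4 passed.

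The other 2 genes fell in iTreg. Stat4 averaged 24.5 ± 6.30 CPM in iTreg KO and 126 ± 3.28 CPM in nTreg KO, and 22.9 ± 7.21 CPM in iTreg WT and 163 ± 6.15 CPM in nTreg WT (SD, n = 3 each). It was lower, with log2 fold changes of -2.35 (SE 0.20, adjusted p = 2.3e-06) with the KO label and -2.83 (SE 0.20, adjusted p = 4.5e-07) with the WT label (edgeR). Ccl5 averaged 0.325 ± 0.200 CPM in iTreg KO and 5.75 ± 2.14 CPM in nTreg KO, and 1.06 ± 0.271 CPM in iTreg WT and 14.4 ± 3.59 CPM in nTreg WT (SD, n = 3 each). Its log2 fold changes were -4.02 (SE 0.49, adjusted p = 1.1e-05; -4.69 without iTreg KO replicate 3) with the KO label and -3.75 (SE 0.37, adjusted p = 4.8e-06) with the WT label (edgeR).

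In iTreg against nTreg, 8 of the 10 genes were higher and 2 lower with the KO label, where 61.9% of all tested genes passed, 32.1% higher and 29.8% lower. With the WT label 5 were higher and 2 lower, where 65.2% of all genes passed, 34.8% higher and 30.4% lower, so that the total of 7 lay near the share of all genes. The median log2 fold change was 2.49 with the KO label (2.15 without Ccl3) and 1.23 with the WT label (0.99 without Ccl3), against 0.01 and 0.05 over all tested genes. The myeloid markers, whose cells also make these chemokines, lay the other way, at 2.70 to 5.92 CPM in iTreg KO and 38.1 to 402 CPM in nTreg KO, and at 2.44 to 5.20 CPM in iTreg WT and 48.7 to 185 CPM in nTreg WT. The summed NK markers were higher in iTreg, at 22.9 to 56.9 CPM in iTreg KO and 2.90 to 5.33 CPM in nTreg KO, and at 21.4 to 59.6 CPM in iTreg WT and 4.001 to 8.12 CPM in nTreg WT. Klrd1, which made up most of that sum in iTreg, rose by 7.74 (adjusted p = 1.2e-06) with the KO label and by 7.01 (adjusted p = 1.2e-06) with the WT label on the log2 scale (edgeR). Klrb1c went the other way, with log2 fold changes of -6.15 (KO label, adjusted p = 2.2e-05) and -6.02 (WT label, adjusted p = 9.0e-06, edgeR). Gzma did not pass with either label. Ncr1 was at 0 in iTreg, and Klra8 in iTreg and nTreg alike. The CD8 markers summed to 8.42 to 10.9 CPM in iTreg KO and 14.7 to 19.1 CPM in nTreg KO, and to 12.6 to 21.3 CPM in iTreg WT and 12.03 to 17.0 CPM in nTreg WT. Within that sum Cd8a rose by 2.06 (adjusted p = 0.0077) with the KO label and by 2.91 (adjusted p = 0.00083) with the WT label, and Cd8b1 fell by 1.62 (adjusted p = 0.00016) with the KO label and by 0.75 (adjusted p = 0.017) with the WT label (edgeR). The part of such cells in the levels of the 10 genes in iTreg against nTreg was not tested.

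**Figure D4:**
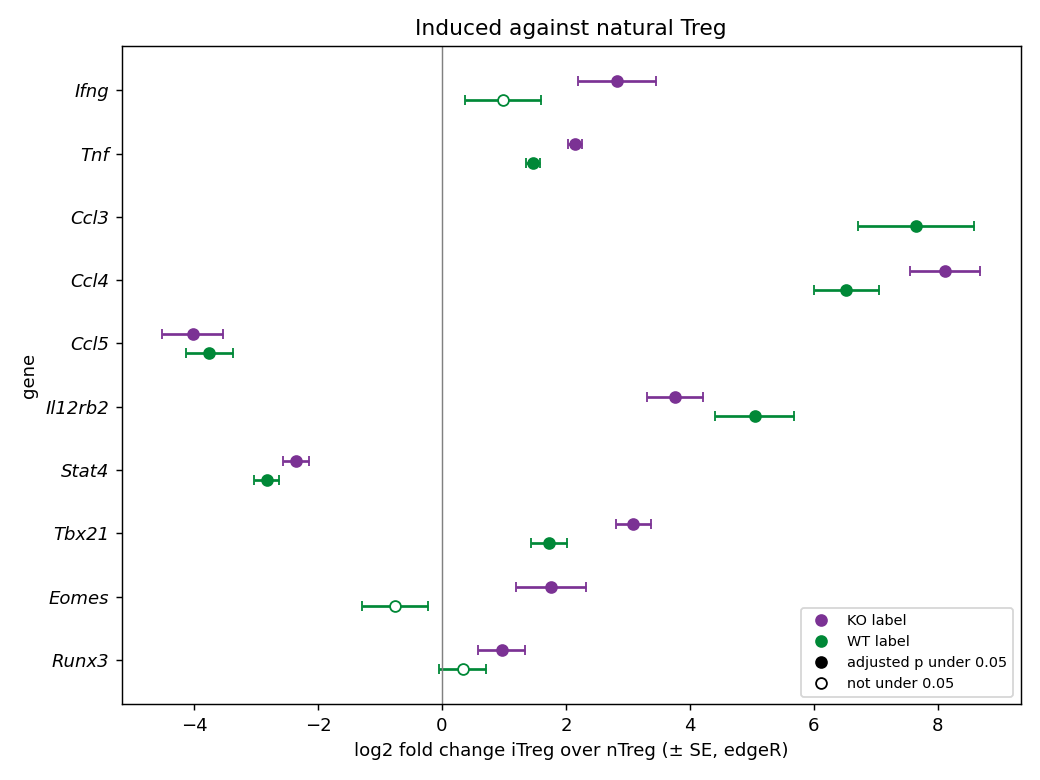
Log2 fold change of iTreg over nTreg with the KO label (purple, upper point of each gene) and the WT label (green, lower point), with bars for ± SE from edgeR; filled points passed the test. Ccl4, Tnf, Il12rb2 and Tbx21 lay above 0 and Ccl5 and Stat4 below 0 with both labels, and Ccl3 with the KO label is left out because nTreg KO had 2 reads of it.

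The order of the 4 groups differed between genes. Tbx21, Tnf and Ccl4 ran from iTreg KO through iTreg WT to the nTreg groups, with each of the first 2 steps free of overlap and no separation between nTreg KO and nTreg WT. Ccl5 had the reverse pattern, from nTreg WT through nTreg KO and iTreg WT to iTreg KO, with no overlap at any step. Stat4 ran from nTreg WT through nTreg KO to both iTreg groups, which overlapped. For Ccl3 and Il12rb2 both iTreg groups overlapped and lay above both nTreg groups, of which nTreg KO lay above nTreg WT for Il12rb2. Neighbours in the order overlapped at every step for Ifng, Eomes and Runx3. Per kilobase of exon (GENCODE M21), the highest level in iTreg KO was that of Ccl4 (181.5 ± 63.25 CPM per kilobase), then Tnf (95.3 ± 1.27), Ccl3 (81.5 ± 19.8) and Tbx21 (33.8 ± 15.1; SD, n = 3 each). In nTreg KO it was that of Stat4 (32.4 ± 0.847 CPM per kilobase), then Tnf (21.4 ± 2.26) and Runx3 (13.3 ± 2.09; SD, n = 3 each).

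Genes with a profile like that of Tbx21 over the 12 libraries were Spata5 (Pearson r of log2 CPM 0.986), Fam82a2 (0.983), Cmpk1 (0.978), Uchl4 (0.978) and Dcun1d5 (0.974). For Ifng they were Anapc10 (0.914), Mtmr7 (0.911), Dnajb6 (0.904), Gch1 (0.904) and Xdh (0.893). For Ccl5 they were Kif1b (0.991), Stim1 (0.990), Svil (0.987), Ecm1 (0.983) and Fam65a (0.979). They were picked for the highest r among tested genes that averaged 3 or more in log2 CPM, predicted genes left out, over the same libraries, which share the step between iTreg and nTreg.

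Other genes of the pathway were followed in a list of 38, of which 35 were tested. In iTreg KO against WT none passed in edgeR (7 at an unadjusted p under 0.05, against 7.56% of all genes). The smallest p belonged to Irf1, a factor induced by interferon, at 319 ± 87.5 CPM in iTreg KO and 192 ± 27.6 CPM in iTreg WT (0.73, SE 0.16, adjusted p = 0.17), and to Cxcr3, the chemokine receptor that T-bet induces, at 45.05 ± 6.95 CPM in iTreg KO and 28.6 ± 3.40 CPM in iTreg WT (0.65, SE 0.15, adjusted p = 0.21, edgeR). With the block 3 were higher, Il12rb1, which pairs with Il12rb2 in the receptor, Cxcr3 and Lta, and 1 was lower, Ifngr1, a chain of the interferon gamma receptor (adjusted p from 0.0036 to 0.039, edgeR), against 0.673% and 0.274% of all genes. The list's median was 0.03, against 0.73 for the 10 genes.

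In nTreg KO against WT none of the 35 passed either (4 at an unadjusted p under 0.05, edgeR, against 13.4% of all genes). Jak1, a kinase of cytokine receptors, was at 886 ± 49.8 CPM in nTreg KO and 1135 ± 38.3 CPM in nTreg WT (-0.36, SE 0.10, adjusted p = 0.12), and Il27ra, a receptor chain for interleukin 27, at 335 ± 5.78 CPM in nTreg KO and 451 ± 14.8 CPM in nTreg WT (-0.43, SE 0.14, adjusted p = 0.17, edgeR). With the block these 2 and Ets1 were lower and Gadd45g was higher (adjusted p from 0.0048 to 0.049, edgeR), where 3.64% of all genes were lower and 5.36% higher. Il12rb1, Lta, Ifngr1, Ets1 and Gadd45g were named after their values were seen. For the difference of KO effects none passed (6 at an unadjusted p under 0.05, against 7.44% of all genes), with Cxcr3 at 0.87 (SE 0.21, adjusted p = 0.19; 0.034 with the block, edgeR).

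Between iTreg and nTreg, 9 of the 35 were higher and 10 lower with the KO label, where 61.9% of all genes passed, and 9 were higher and 12 lower with the WT label, where 65.2% of all genes passed. Those shares of all genes were no lower than the shares of the list. The 4 with the smallest p were the same in both. Xcl1, a chemokine gene of activated T and NK cells, rose by 6.13 (SE 0.49) with the KO label and by 6.94 (SE 0.56) with the WT label (adjusted p = 3.8e-07 and 1.4e-07, edgeR). Il27ra fell by 2.07 (SE 0.14) with the KO label and by 2.46 (SE 0.14) with the WT label. Tyk2, a kinase that acts at the receptor for interleukin 12, fell by 1.09 (SE 0.08) with the KO label and by 1.29 (SE 0.08) with the WT label (for both genes adjusted p from 7.3e-08 to 7.0e-07, edgeR). Klrg1, a receptor on terminally differentiated T cells, had no read in iTreg WT against 1030 in nTreg WT and was thus at least 526-fold lower in iTreg (floor of 3 counts over the group, or 427 at the limit of the exact 95% counting interval); with the KO label it had 2 reads in iTreg and 1037 in nTreg, a ratio of nTreg over iTreg of 486 (134 to 4016).

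By position (mm10, GENCODE M21), Ccl5, Ccl3 and Ccl4 lie on chromosome 11 at 83525778 to 83530518, 83647844 to 83649355 and 83662584 to 83664683, the first 2 on the minus strand, and Tbx21 on the same chromosome at 97098071 to 97115331. The 3 chemokine genes thus stand together, while the log2 fold change of Ccl5 had the other sign than those of Ccl3 and Ccl4 in iTreg KO against WT and in iTreg against nTreg. Ifng lies on chromosome 10 (118441046 to 118445892), Eomes on chromosome 9 (118478212 to 118486132), Tnf on chromosome 17 (35199381 to 35202007), Stat4 on chromosome 1 (51987148 to 52107189), Il12rb2 on chromosome 6 (67291318 to 67376188) and Runx3 on chromosome 4 (135120652 to 135177990). All are protein-coding. Ifng, Stat4 and Eomes also share 336, 1033 and 118 exonic bases with Gm49751, Gm28177 and Gm33460, predicted genes of GENCODE M21. The annotation used for counting is not given, so whether these overlaps touched the counts is not known.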

How the data were processed

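The deposited files hold raw counts per gene symbol, 1 file per library. The submitters' processing notes name cutadapt 1.13, STAR, HTSeq 0.6.1p1, DESeq2 and build mm10; their roles, the annotation and the strand setting are not given in the sources used here. The main test was the robust quasi-likelihood test of edgeR 4.0.16 in R 4.3.3 with TMM factors. One model with the 4 groups as terms covered the 12 libraries and left 8 residual degrees of freedom. Genes needed a count of 10 in enough libraries and 15 in total. Depth sets the precision: a group with no read was set to a floor of 3 counts. KO and WT libraries of a number vary together in each cell type, so the block on that number was fitted per cell type (4 residual degrees of freedom) for KO comparisons. Between cell types they do not (correlations from -0.169 to 0.117), and that block is an alternative only. Other alternatives were RLE scaling, every gene kept, a filter at a CPM of 5 in 3 libraries, DESeq2 1.42.0, fits of only the 6 libraries compared, and each library left out. Fits without the libraries with Xist reads and without both nTreg libraries numbered 2 were added after seeing the data. The edgeR fit with no block was tested on simulated data, while the fits with a block and DESeq2 were not. The genes and lists were chosen with earlier results of these data known. Named are the 10 genes, Syvn1, Foxp3, up to 4 called pathway genes of smallest p per comparison (2 where none passed), and the 5 genes most correlated with Tbx21, Ifng and Ccl5. One gene that this rule names is not reported here. Symbols missing from the files were looked up by RefSeq synonym. Figures were drawn with matplotlib 3.10.9.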

Additional observations from a re-analysis of the deposited data

Results flagged for a closer look

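The KO effect differed between iTreg and nTreg in edgeR's test of the difference with the replicate block for Ifng (log2 difference 2.04), Tnf (0.69), Tbx21 (1.32) and Eomes (2.66), iTreg minus nTreg. None of these 4 differences passed without the block, where the adjusted p ranged from 0.16 to 0.70. For Ccl4 each iTreg KO library lay above the WT library of its number, and each nTreg KO library below it, in CPM. The log2 difference was 1.59 (adjusted p = 0.71, or 0.34 with the block, edgeR). Its nTreg part rests on 5, 4 and 5 reads in nTreg KO against 8, 2 and 6 reads in nTreg WT. For numbers 2 and 3 the nTreg log2 ratios were -0.17 and -0.05, so a direction in nTreg was not detectable at this depth. The largest of these differences by size, that of Eomes, rests on 6 to 88 reads per library.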

How the results depend on the processing

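Numbers of called genes are given for nTreg KO against WT, iTreg KO against WT and the interaction, where the main values were 304, 22 and 35 genes and 0 of the 10 genes in each. DESeq2 called 486, 99 and 138 genes, and 1, 2 and 1 of the 10. With the replicate block the counts were 1083, 114 and 217 genes, and 3, 3 and 4 of the 10. With only the 6 libraries compared, 1142 genes were called in nTreg and 0 genes in iTreg. Of the 10 genes, only 8 passed the filter in that nTreg fit, and 2 of these were called. Without the libraries with Xist reads the counts were 71, 0 and 1 genes. Without both nTreg libraries numbered 2 they were 103, 7 and 1. Leaving out 1 library gave 167 to 432 genes in nTreg (lowest without nTreg WT replicate 2, highest without iTreg KO replicate 2), 0 to 64 in iTreg (lowest without iTreg WT replicate 1, highest without iTreg KO replicate 3) and 1 to 58 for the interaction (lowest without nTreg WT replicate 3, highest without iTreg KO replicate 2). Of the 10 genes it called 0 to 1 in nTreg and 0 to 2 in iTreg. Signs reversed only for log2 fold changes that missed the threshold. Tbx21 in nTreg was -0.014 with RLE scaling and -0.010 in DESeq2, and -0.062 to 0.085 leaving out 1 library. Leaving out 1 library also gave -0.083 to 0.21 for Runx3 in nTreg, -0.065 to 1.03 for Runx3 and -0.064 to 0.38 for Stat4 in iTreg, and -0.12 to 0.98 for Runx3 and -0.94 to 0.071 for Ccl5 in the interaction. Without the libraries with Xist reads Stat4 in iTreg was -0.065 and the Ccl5 interaction 0.10. The cause of these changes was not tested. Of all values of single genes under the alternatives, 929 kept direction and side of the threshold, 22 newly passed, 20 no longer passed and 12 changed sign. Depth limits Ccl3 and Ccl4 in nTreg, with 2 and 14 reads in nTreg KO and 4 and 16 reads in nTreg WT.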
